A study of Homo sapiens with 6 samples.

Results

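The 10 genes described here encode nuclear receptors that control metabolism in liver cells: NR1H4, NR0B2, NR5A2, NR1H3, NR1I2, NR1I3, PPARA, ESRRA, RXRA and NR3C1. They were taken by name, as every region of 4 ChIP-seq lists that the authors had assigned to one of the 10 symbols, out of 16428 genes named in those lists. NR0B2 is the receptor also called SHP, a corepressor whose abbreviation only resembles that of SHP-1, the tyrosine phosphatase encoded by PTPN6. The lists came from HepG2, a cell line grown from a human liver tumor, in which chromatin was precipitated with an antibody to RPB1, the largest subunit of RNA polymerase II, or to RPB1 phosphorylated on serine 2 (phospho-Ser2), a mark of elongating polymerase. SHP-1 KO cells had been made by CRISPR/Cas9 with guides to PTPN6, selected in puromycin and grown from single cells, and SHP-1 WT cells are labelled as the CRISPR control. Whether those controls had received a non-targeting guide or none is not given in the sources used here, and no further treatment is named for either. Each antibody and cell type had 1 library, so differences between the cell types have no replicate check, no test could be made, and the effect of the knockout and a difference between clones cannot be told apart. The clone used for the KO libraries is not given in the sources used here.

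Nuclear receptors are transcription factors, most of which are switched by small lipophilic ligands. NR1H4, NR1H3, NR1I2, NR1I3 and PPARA bind DNA as dimers with RXRA, whereas NR5A2 and ESRRA bind as monomers or homodimers and NR0B2 lacks a DNA-binding domain and represses other receptors. In hepatocytes this set ties bile acids, sterols, foreign compounds, fatty acids and glucocorticoids to the transcription of enzymes and transporters.

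A region is a stretch where the peak caller found an excess of reads over the matched input DNA. Its fold enrichment is the ratio to input at the summit, and its rank is its place by fold enrichment within its own list. All positions are on hg38, and distances run from the canonical transcript start to the summit. The lists held 46045 (WT) and 41605 (KO) RPB1 regions and 102674 and 81012 phospho-Ser2 regions, and carry no read counts, so the depth is unknown. Of the liver markers, 8 of 8 had an RPB1 region in WT and 7 of 8 in KO cells, the exception being APOA1, whose strongest region over the gene (51.0 in WT and 46.3 in KO) carries a neighbour's symbol. Of 9 markers of leukocytes, endothelium, fibroblasts and cholangiocytes, CD68 and PECAM1 had RPB1 regions in both lists by symbol, and a region over SOX9 read 41.4 in WT and 38.8 in KO. PTPN6 itself kept a region in every list, with strongest fold enrichments of 24.0 (WT) and 17.2 (KO) for RPB1 and 4.03 and 5.24 for phospho-Ser2, which says nothing about SHP-1 protein because the guides cut inside the gene.

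Of the 16428 genes named in any list, the WT RPB1 list named 14164 and the KO RPB1 list 13459. All 10 receptor genes had RPB1 regions in both cell types, 53 of them in WT cells and 40 in KO cells. Against the WT number, that is 0.755 for the receptors and 0.904 for the whole lists. For phospho-Ser2 the receptors had 107 and 89 regions, a ratio of 0.832 beside 0.789 for the lists. NR1H4 alone held 56 and 54 of those, and without it the other 9 genes had 51 and 35, a ratio of 0.686. An RPB1 region within 1 kb of an annotated start was found for 9 receptors in each cell type, NR1I2 being the exception, beside 86.3% of the genes named in the WT list and 87.9% in the KO list. Phospho-Ser2 regions were found for 8 receptors in each, with NR5A2 and NR3C1 missing in WT and PPARA and NR3C1 missing in KO. Beside that, the phospho-Ser2 lists named 12740 (WT) and 11433 (KO) of the 16428 genes. Phospho-Ser2 at a start was found for 6 receptors in each cell type (all genes, 71.1% and 70.1%). The median fold enrichment of the receptors' regions was 5.80 (WT) and 6.07 (KO) for RPB1, next to 5.51 and 5.62 for all regions. For phospho-Ser2 it was 3.81 and 3.97, next to 3.69 and 3.80.

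**Figure D1:**
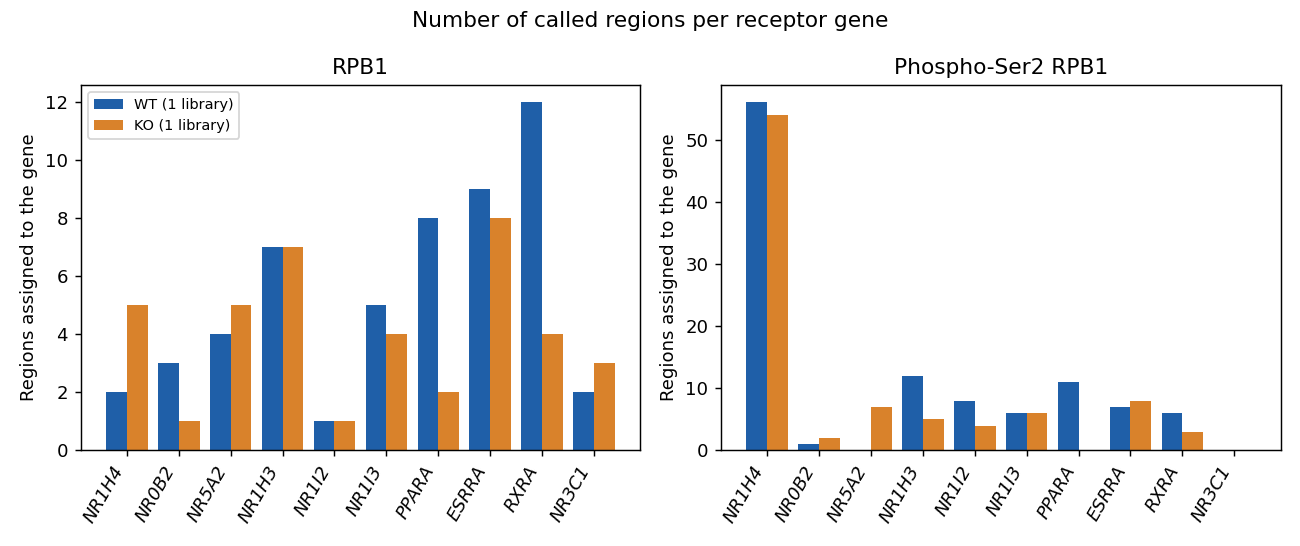
Number of regions assigned to each receptor gene in 1 WT and 1 KO library, for RPB1 (left) and phospho-Ser2 RPB1 (right), on linear axes from 0. RXRA (12 and 4) and PPARA (8 and 2) show the widest RPB1 gaps, and NR1H4 stands above the rest for phospho-Ser2.

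Fewer RPB1 regions were listed in KO than in WT cells for 5 receptors, more for 3 and the same number for 2. This split was not computed over all genes for either antibody. Both KO lists were also shorter, with 0.904 (RPB1) and 0.789 (phospho-Ser2) of the WT number. Of the 5 receptors with at least 5 WT regions, PPARA (8 and 2) and RXRA (12 and 4) had at least 3 times fewer in KO cells, beside 9.03% of all genes with at least 5 WT regions. From a −log10 q-value of 5 upward, PPARA had 2 and 1 RPB1 regions and RXRA 6 and 3, so neither had 3 times fewer. For phospho-Ser2, 5 receptors had fewer regions, 3 more and 1 the same, and 1 of 7 (PPARA) passed that mark, beside 13.2% of all genes. PPARA was the receptor with phospho-Ser2 regions in WT only (14.1% of all genes), and NR5A2 the receptor with them in KO only (4.23%). Of all genes, 1.04% had at least 5 phospho-Ser2 regions in WT and 0 in KO. The reverse held for 0.12%, and by symbol both receptors passed this mark of 5 regions. It was chosen after these counts were seen, so passing it is not a test. From a −log10 q-value of 5 upward, PPARA had 2 WT regions and NR5A2 2 KO regions, so neither passed. Over the gene, PPARA also had 3 KO regions, under a neighbour's symbol. No receptor was named in only one of the RPB1 lists, which held 8.73% of genes in WT only and 3.95% in KO only (0.163% and 0.0407% with at least 5 regions).

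An overlap of at least 1 bp with a region of the other cells was found for 31 of the receptors' 53 WT RPB1 regions (58.5%, 95% Wilson interval 45.1 to 70.7) and for 34 of the 40 KO regions (85.0%, 70.9 to 92.9). All RPB1 regions gave 61.9% and 74.9%. For phospho-Ser2 the shares were 62.6% of 107 WT regions (53.2 to 71.2) and 84.3% of 89 KO regions (75.3 to 90.4), where all regions gave 52.2% and 69.9%. Leaving out NR1H4, which held 56 and 54 of those regions, made them 45.1% (32.3 to 58.6) and 68.6% (52.0 to 81.4). The shares of all regions lie inside both of these intervals. All of these intervals cover counting error only. They treat regions as independent, which regions of the same gene in 1 library are not. The receptors' WT RPB1 regions without a KO partner were weak, with a median fold enrichment of 4.74 and a maximum of 9.61, and those with one had a median of 8.92. Over all WT RPB1 regions the medians were much the same, 4.51 without a partner and 8.35 with one.

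To compare fold enrichments between libraries that were scaled only to their own input, the log2 KO/WT ratio of each gene's strongest region was taken and the median over all genes with a region in both lists was subtracted. That median was -0.43 for RPB1 (12877 genes) and -0.09 for phospho-Ser2 (10870 genes). The centred ratios of the 10 receptors ran from -1.01 (RXRA) to 0.97 (NR1I3) for RPB1, with a median of -0.10 and 5 on each side of 0. Only RXRA lay 2 times or more below, where 2.29% of all genes did, and none lay 2 times above, where 2.81% did. For phospho-Ser2 the 7 receptors in both lists ran from -0.65 (RXRA) to 0.47 (ESRRA), and none was 2 times lower (1.58% of genes) or higher (1.44%).

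**Figure D2:**
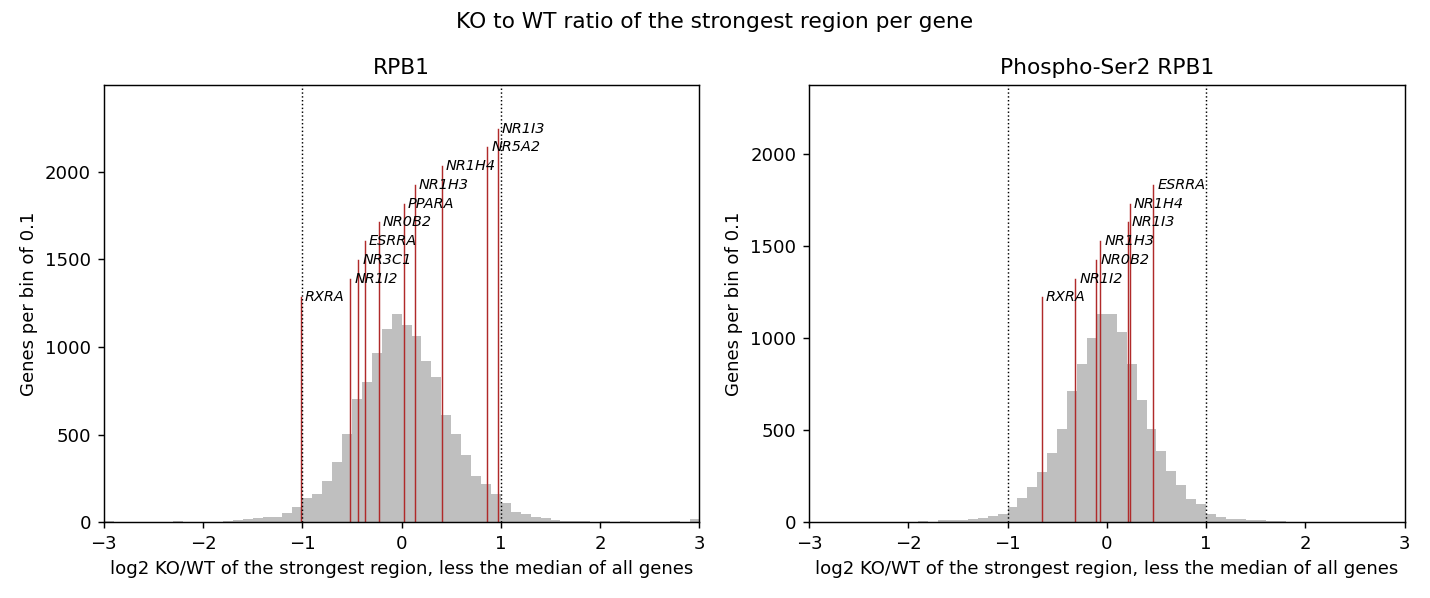
Histogram of the centred log2 KO/WT ratio of the strongest region over all genes in both lists (grey, bins of 0.1), with each receptor as a red line, for RPB1 (left, 10 receptors) and phospho-Ser2 RPB1 (right, 7). RXRA lies at -1.01 and -0.65, the lowest receptor in both panels, and dotted lines mark 2 times either way.

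NR1H4, the bile acid receptor FXR, is a forward-strand gene of 90707 bp (chromosome 12, 100473708 to 100564414). RPB1 sat at its start, with a WT region at chr12:100473551-100476919 that had a fold enrichment of 17.1 and a summit 74 bp after the start of the canonical transcript. In KO cells the same stretch was listed as 3 regions of 8.31, 3.88 and 16.8, the last of them with its summit at 1697 bp. The start itself thus read 17.1 in WT and 8.31 in KO, while the strongest region of the gene read 17.1 and 16.8 (centred log2 0.41). A WT region of 6.18 at 37391 bp and KO regions of 4.99 at 3796 bp and 5.38 at 36031 bp had no partner in the other list.

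Phospho-Ser2 covered most of NR1H4, unlike RPB1. Counted over the gene, each phospho-Ser2 list held 76 regions, which spanned 69.2% of the gene in WT and 65.8% in KO cells, beside 3.88% and 4.33% for RPB1. The symbol NR1H4 was given to 56 and 54 of them, a number that 1.03% of the genes in the WT list and 0.910% in the KO list reached. The others, 20 and 22 in the last part of the gene, carried the symbol of the downstream neighbour GAS2L3. Of the 76, 64 WT regions overlapped a KO region and 72 KO regions a WT region. The median fold enrichment was 4.11 in WT and 3.92 in KO. In 5 equal parts of the gene from start to end, the WT list covered 53.4%, 88.3%, 57.0%, 77.4% and 69.8%, and the KO list 42.6%, 88.6%, 57.9%, 69.0% and 71.1%. The first part was covered less than the next in both cell types.

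The strongest phospho-Ser2 signal of NR1H4 stood at its end. The WT region chr12:100561351-100566747 had a fold enrichment of 24.3 and rank 92 of its list, with a summit 774 bp past the annotated end. Its KO counterpart chr12:100561341-100566451 read 12.5 at rank 874, with the summit 220 bp past the end. Both were assigned to GAS2L3, so the choice of assignment decides the comparison: the centred log2 ratio was 0.23 by symbol (6.97 and 7.66) and -0.86 over the gene. Both ratios were centred on the median of the by-symbol ratios.

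**Figure D3:**
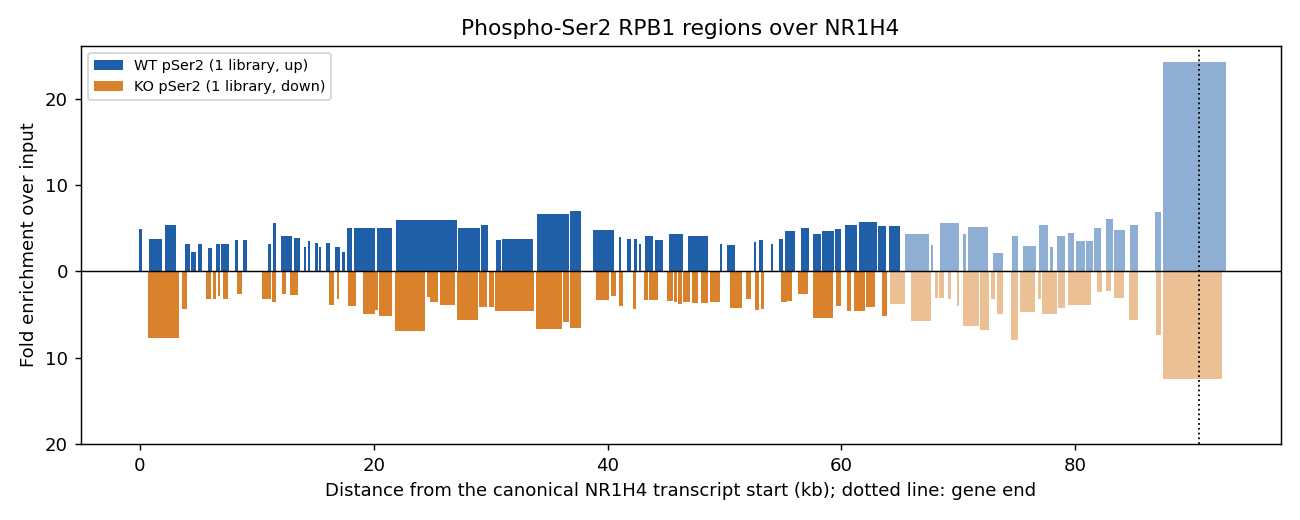
Phospho-Ser2 RPB1 regions over NR1H4 by distance from the canonical start (kb), each bar as wide as its region and as high as its fold enrichment over input, for 1 WT library (up) and 1 KO library (down, same scale). Pale bars carry the symbol GAS2L3, and the last region at the gene end (dotted line) read 24.3 in WT and 12.5 in KO.

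An internal start of NR1H4 was covered by phospho-Ser2 (5.40 in WT, 4.11 in KO) but by no RPB1 region. Its 250 upstream bases, chr12:100503110-100503359 on the forward strand (RefSeq, GRCh38.p14), are shown because they hold the receptor core hexamer AGGTCA, here in capitals as its reverse complement. This hexamer was searched on both strands and occurs in 12.1% of 35116 RefSeq promoter windows of the same length.
NR1H4 internal start: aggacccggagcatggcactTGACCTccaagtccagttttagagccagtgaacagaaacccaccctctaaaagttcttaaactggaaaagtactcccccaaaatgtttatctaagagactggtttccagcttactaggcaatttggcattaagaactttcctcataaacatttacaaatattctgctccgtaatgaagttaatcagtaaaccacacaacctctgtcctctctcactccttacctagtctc

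NR0B2, the SHP corepressor that bile acids induce through NR1H4, had the strongest region of the 10 genes for both antibodies when regions were taken by symbol. Its 2487 bp (chromosome 1, 26911489 to 26913975, reverse strand) were wholly covered by a single region in each list. The RPB1 region had a fold enrichment of 56.9 in WT (chr1:26908688-26914912, rank 1098, top 2.38%) and of 35.9 in KO (chr1:26909172-26914582, rank 1846, top 4.44%), with summits 103 and 37 bp after the start. The centred ratio was -0.23. Phospho-Ser2 read 19.8 at rank 205 in WT and 17.2 at rank 312 in KO, with summits 752 and 666 bp past the gene end (centred ratio -0.11). RPB1 thus peaked at the start and phospho-Ser2 beyond the end in both cell types. Weak RPB1 regions of 3.55 and 5.44 beside the gene were in the WT list alone. The gene NUDC on the forward strand overlaps all of these regions, ChIP carries no strand, and which gene the signal belongs to was not tested.

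NR5A2 (LRH-1), which activates bile acid synthesis genes and is held back by NR0B2, showed the reverse of PPARA for phospho-Ser2. It spans 149807 bp of chromosome 1, from 200027614 to 200177420 on the forward strand. RPB1 was listed in 4 WT regions of 8.92, 5.01, 11.3 and 9.45, with summits at 1562, 12182, 13141 and 15028 bp from the canonical start. The 5 KO regions read 3.66, 15.3, 13.4, 9.68 and 3.54, at -35, 1533, 13192, 14674 and 15304 bp. Neither list thus placed its main RPB1 signal on the canonical start, which only a weak KO region covered. The strongest regions, 11.3 and 15.3, gave a centred log2 ratio of 0.86, at or above that of 95.4% of genes. Taking promoter regions alone made it 1.16, past the mark of 2 times. Both ratios set regions at different sites against each other. KO 15.3 at 1533 bp is set against WT 11.3 at 13141 bp, or among promoter regions against WT 9.45 at 15028 bp. The WT region that overlaps the KO region at 1533 bp read 8.92 and was classed as 3' UTR.

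No phospho-Ser2 region was assigned to NR5A2, or overlapped it, in WT cells. In KO cells 7 were listed, at 12943, 14063, 14853, 21000, 25384, 104761 and 149935 bp from the start. Their fold enrichments were 4.69, 3.61, 2.47, 2.88, 4.07, 3.65 and 4.10, and the −log10 q-value reached 5 in 2 of the 7. The last lay at the end of the gene. Of the 563 genes with phospho-Ser2 regions in KO only, 5 (0.888%) had as many as 7 or more, and their median was 1. These regions are weak, the strongest standing in the top 24.0% of its list.

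The RPB1 regions near 15 kb lie on an internal NR5A2 start. Its 250 upstream bases, chr1:200042341-200042590 on the forward strand (RefSeq, GRCh38.p14), are shown because a KO RPB1 region (9.68) spans all of them. The WT RPB1 region (9.45) overlaps 37 of the 250 bases, next to the start, and a KO phospho-Ser2 region (2.47) overlaps 120. They hold none of the motifs searched, so no letter is in capitals.
NR5A2 internal start: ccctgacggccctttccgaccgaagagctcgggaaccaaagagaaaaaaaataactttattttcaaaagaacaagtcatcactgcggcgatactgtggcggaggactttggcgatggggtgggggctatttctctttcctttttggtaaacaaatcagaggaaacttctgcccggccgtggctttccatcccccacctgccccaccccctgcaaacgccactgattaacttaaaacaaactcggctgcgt

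NR1H3, the oxysterol receptor LXR alpha, spans chromosome 11 from 47248300 to 47269033 on the forward strand and had 7 RPB1 regions in each list. The strongest lay at its upstream start, 29.7 in WT (chr11:47248422-47249681) and 24.2 in KO (chr11:47248155-47249469), where the neighbour ACP2 overlaps. The canonical promoter read 16.1 and 11.4. With a centred ratio of 0.14, NR1H3 stayed near the median gene. A region with its summit at -3116 bp from the canonical start read 7.12 in WT and its KO counterpart 11.3. Phospho-Ser2 regions numbered 12 in WT and 5 in KO, and the strongest read 6.14 and 5.49 (centred ratio -0.07). Of the 12, 4 overlapped a KO region. The region before the canonical start read 6.14 in WT and 3.88 in KO, and the one at the upstream start 4.12 and 5.49. At the end of NR1H3, a stronger RPB1 region of 49.0 and 38.4 was assigned to MADD, whose start lies there.

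NR1I2 (PXR), the receptor for drugs and other foreign compounds, was the only receptor without a region at a start in any list. Its gene runs from 119780484 to 119818487 on chromosome 3, forward strand. The single RPB1 region lay in intron 1, at 13355 bp in WT (chr3:119795177-119795712, 10.8) and at 13288 bp in KO (chr3:119795270-119795585, 5.61), a centred ratio of -0.52. Its rank was 12295 in WT and 20888 in KO. The 8 WT and 4 KO phospho-Ser2 regions lay at or past the gene end, and 5 of the 8 and 3 of the 4 overlapped GSK3B. Just 2 of the WT regions, 5.08 and 3.05, and 0 of the KO regions overlapped NR1I2 itself. Most of the regions under this symbol therefore lie outside NR1I2.

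NR1I3 (CAR), which shares targets with NR1I2, is an 8579-bp gene on the reverse strand of chromosome 1 (161229666 to 161238244). Its RPB1 regions filled the later part of the gene. The strongest read 8.01 in WT (chr1:161231498-161233116) and 11.6 in KO (chr1:161231795-161234312), a centred log2 ratio of 0.97, just short of 2 times. At the start, the WT list alone held a region, of 5.04 with its summit at -150 bp (chr1:161238233-161238571). Phospho-Ser2 gave 6 regions in each list, covering 52.4% and 48.8% of the gene. The strongest, over exon 5, read 9.65 at rank 2272 in WT and 10.4 at rank 1522 in KO (centred ratio 0.21). TOMM40L overlapped 2 of the 5 WT and 2 of the 4 KO RPB1 regions.

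PPARA, the fatty acid receptor that drives oxidation genes in fasting, had fewer listed regions in KO than in WT cells, with a promoter region in both. The gene covers 46150521 to 46243755 of chromosome 22, forward strand. Its promoter RPB1 region read 22.4 in WT (chr22:46148981-46151143) and 16.9 in KO (chr22:46149593-46151122), a centred ratio of 0.03. A second region upstream read 15.4 at -2748 bp in WT and 4.41 at -2921 bp in KO. The other 6 WT RPB1 regions had fold enrichments of 3.15 to 5.01, among them 3 in intron 2 at 20089, 20827 and 21317 bp, and none had a KO partner. Only the promoter and the upstream region reached a −log10 q-value of 5 in WT.

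Phospho-Ser2 at PPARA was listed in 11 WT regions and 0 KO regions by symbol. The WT fold enrichments ran from 2.43 to 5.37, 9 of the 11 fell below a −log10 q-value of 5, and the highest had its summit at -1362 bp from the start. Among the 1870 genes with phospho-Ser2 in WT only, 24 (1.28%) had as many regions or more. Over the gene, whatever the symbol, the counts were 17 and 3, since 6 WT and 3 KO regions in the last exons and introns were assigned to CDPF1. At the gene end those read 6.66 in WT and 6.12 in KO, at ranks 6711 and 7630. Phospho-Ser2 was therefore listed at the end of PPARA in both cell types, and the 11 regions from the promoter to intron 3 were in the WT list alone.

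**Figure D4:**
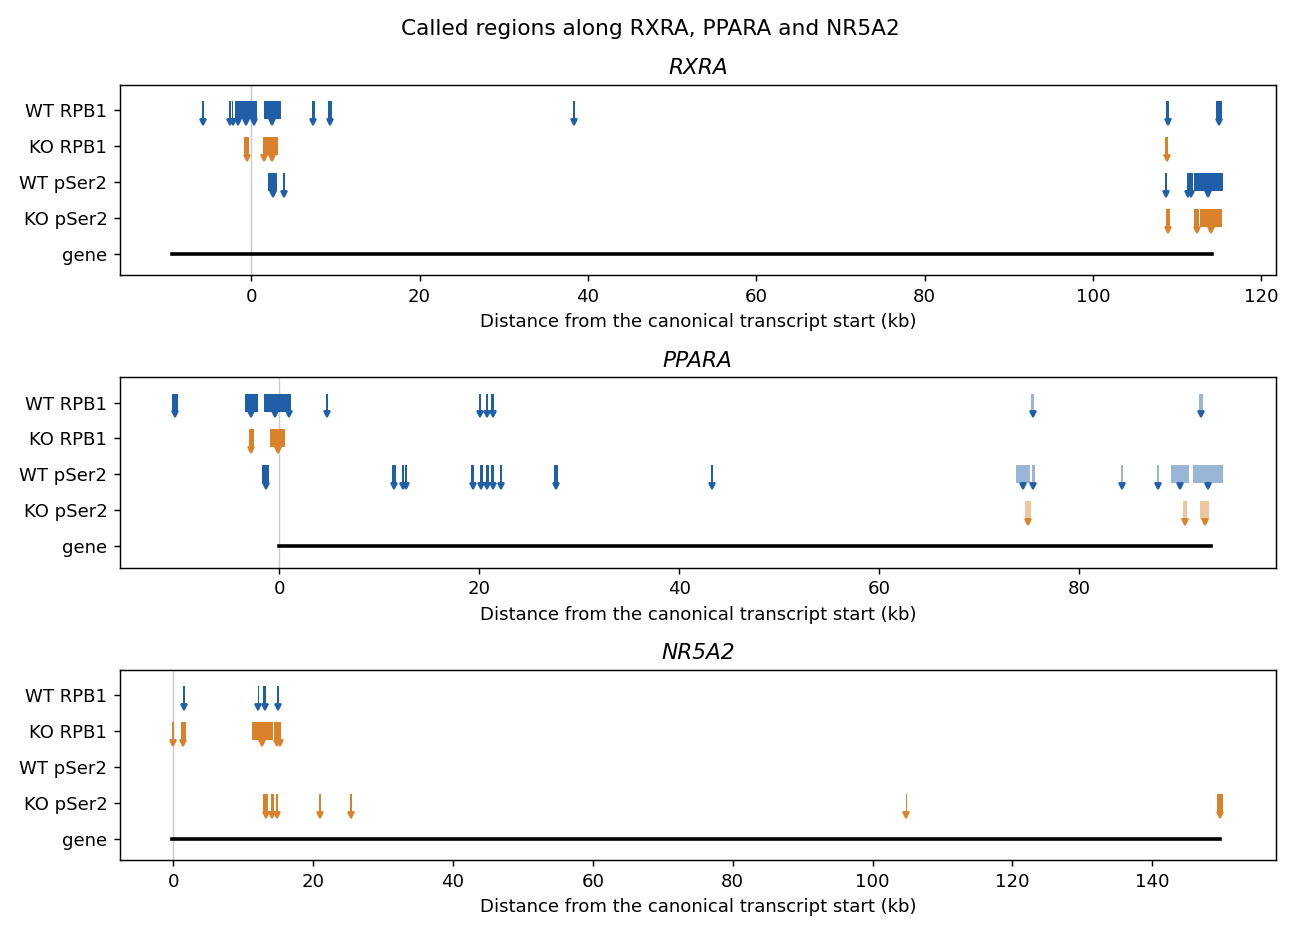
Regions along RXRA, PPARA and NR5A2 by distance from the canonical start (kb), 1 line per library, with blocks drawn to scale and a triangle under each block; pale blocks overlap the gene but carry a neighbour's symbol, and the black line is the gene. RXRA and PPARA have fewer blocks in KO, and NR5A2 has phospho-Ser2 blocks in KO alone.

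ESRRA, an orphan receptor of mitochondrial genes, had matching RPB1 regions in both cell types. It spans 64305497 to 64316743 of chromosome 11, forward strand. RPB1 was listed in 9 WT and 8 KO regions, all of which overlapped a region of the other list. The promoter region read 44.6 in WT (chr11:64304068-64308142, rank 2440) and 25.6 in KO (chr11:64304350-64307848, rank 4058), a centred ratio of -0.37. RPB1 covered 80.2% of the gene in WT and 61.3% in KO. Phospho-Ser2 gave 7 and 8 regions. In intron 2, near 4526 and 4509 bp from the start, it read 4.85 in WT and 8.10 in KO. The promoter went the other way, with 6.26 and 4.92, and the centred ratio of the strongest regions was 0.47. That ratio rests on the intron 2 region: with promoter regions alone, at any annotated start, the strongest read 6.26 and 5.99 and the centred ratio was -0.0035. The 250 bases before the ESRRA start, chr11:64305274-64305523 on the forward strand (RefSeq, GRCh38.p14), are shown as the window under a strong RPB1 region in both cell types. Capitals mark the GC box GGGCGG on either strand, with 8 matches, some overlapping. This motif occurs in 42.6% of all windows, and 78% of these bases are G or C beside a median of 58% over all windows.
ESRRA: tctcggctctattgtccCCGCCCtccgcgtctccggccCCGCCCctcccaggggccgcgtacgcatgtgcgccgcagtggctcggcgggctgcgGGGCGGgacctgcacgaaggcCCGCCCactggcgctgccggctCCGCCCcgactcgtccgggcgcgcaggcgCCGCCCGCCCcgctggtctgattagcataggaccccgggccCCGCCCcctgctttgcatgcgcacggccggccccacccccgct

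RXRA, the shared dimer partner, had the lowest centred RPB1 ratio of the 10 receptors when the strongest regions were compared by symbol. The gene runs from 134317098 to 134440585 on chromosome 9, forward strand. The region just before its canonical start read 45.8 in WT (chr9:134325293-134326298, rank 2260, top 4.91%) and 16.8 in KO (chr9:134325574-134326226, rank 7366, top 17.7%). The centred log2 ratio of -1.01 was reached or undercut by 2.17% of genes. It is -0.98 when promoter regions alone are compared, so the mark of 2 times is met under one rule and narrowly missed under the other. A region of 7.30 directly over the start was in the WT list alone. In intron 1, near 2398 and 2390 bp, RPB1 read 29.9 in WT and 15.2 in KO. Of the 12 WT regions, 3 were overlapped by KO regions, and all 4 KO regions were overlapped by WT regions. The 9 WT regions without a partner read 3.73 to 9.61.

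Phospho-Ser2 at RXRA was strongest around the gene end. The WT region chr9:134438417-134441925 read 14.0 at rank 733, with its summit 984 bp past the end, and the KO region chr9:134439169-134441804 read 8.32 at rank 2967, with its summit 72 bp before the end. Both antibodies thus read lower in KO, at opposite ends of the gene (centred ratio of phospho-Ser2 -0.65). A WT region of 5.84 in intron 1 had no KO partner. Since both lists of a cell type share 1 input library, the antibodies are not independent readings. The 250 bases before the RXRA start, chr9:134326205-134326454 on the forward strand (RefSeq, GRCh38.p14), are shown as the bases next to the canonical start. The strongest WT region (45.8) overlaps the first 94 of them and the strongest KO region (16.8) the first 22, while the WT region of 7.30 overlaps the last 92. With 89.2% G or C and 6 GC boxes in capitals, some overlapping, they are the most GC-rich of the receptors' windows.
RXRA: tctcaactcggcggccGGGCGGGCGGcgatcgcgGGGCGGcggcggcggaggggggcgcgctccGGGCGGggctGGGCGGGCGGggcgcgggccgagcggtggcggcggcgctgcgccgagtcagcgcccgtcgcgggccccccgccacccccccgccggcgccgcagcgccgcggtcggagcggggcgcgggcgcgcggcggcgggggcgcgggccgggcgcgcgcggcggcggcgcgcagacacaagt

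NR3C1, the glucocorticoid receptor, was occupied by RPB1 only around its promoters. The strongest region read 24.9 in WT (chr5:143402593-143404656) and 13.6 in KO (chr5:143403198-143404432), a centred ratio of -0.44. The next promoter upstream read 10.4 and 10.3, nearly the same before centring. As the median log2 ratio over all genes was -0.43, near-equal raw values stand above that median. No phospho-Ser2 region overlapped any of its 157582 bp in either cell type.

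**Figure D5:**
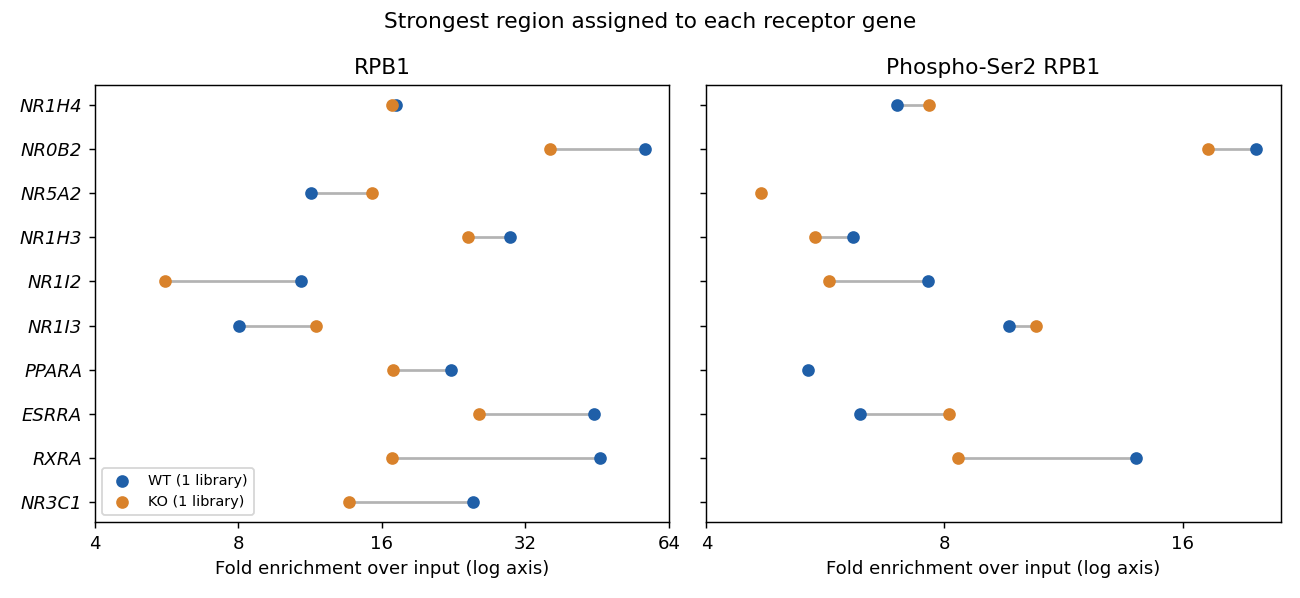
Fold enrichment over input (log axes) of the strongest region assigned to each receptor in 1 WT and 1 KO library, for RPB1 (left) and phospho-Ser2 RPB1 (right), where a missing point means no region. NR0B2 is highest throughout, and RXRA has the longest RPB1 line, from 45.8 to 16.8.

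Other motifs were searched in the 250-base windows of the 9 receptors that have one in the RefSeq table. A receptor was counted when any of its windows held the motif, and some receptors, such as NR3C1 and NR1H3, have several windows. The percentages are shares of windows, so the counts of receptors cannot be set against them. The hexamer AGGTCA was found for NR1H3, NR1H4 and NR5A2, and TATAAA, in 10.7% of all windows, for NR3C1 and NR5A2. GGGCGG was found for ESRRA, NR1H3, NR3C1, PPARA and RXRA. The longer forms were in none: TCAAGGTCA (0.319% of windows), the direct repeat AGGTCA, any base, AGGTCA (0.0171%), and the inverted repeat AGGTCA, any base, TGACCT (0 of 35116 windows). The first hexamer is part of the longer forms. A match is only a run of letters and was not tested for binding.

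Over the gene intervals, the strongest phospho-Ser2 summit lay within 3 kb of the annotated gene end for 5 of the 8 receptors with a region in WT and for 4 of 8 in KO. The same share over all genes was not computed, so whether this is particular to the receptors is not known. NR0B2 is 2487 bp long, so any summit inside it would count. The NR1H4 and PPARA summits lay in regions assigned to GAS2L3 and CDPF1.

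Known target genes of the receptors were read the same way, from lists chosen for this purpose. Of all genes, 8.73% had RPB1 regions in WT only and 3.95% in KO only, 14.1% and 4.23% had phospho-Ser2 regions on one side in that order, and 2.29% and 2.81% of those in both RPB1 lists lay 2 times below or above. Of 10 PPARA targets, 7 had RPB1 regions in WT and 5 in KO. CPT1A, the gate of mitochondrial fatty acid uptake, had 6 and 1 regions and strongest values of 14.5 and 5.10 (centred log2 -1.07), and ANGPTL4, a lipase inhibitor, had 3 and 0 regions with a WT maximum of 10.0. FGF21 had 2 and 0 by symbol, but a region over the gene read 5.62 in KO. The median centred ratio of the 5 in both lists was 0.28. For phospho-Ser2, 6 and 4 of the PPARA targets had regions. Of 6 NR1H4 targets, NR0B2 among them, 5 and 4 had RPB1 regions, and the bile acid exporter subunit SLC51A had 4 in WT, up to 7.19, and 0 in KO. SLC51A kept phospho-Ser2, at 10.4 and 5.97. Of 7 NR1H3 targets, 7 and 6 had RPB1 regions, the missing one being ABCG1, with 1 WT region of 5.67. All 4 ESRRA targets had regions in every list. CYCS, cytochrome c, read 35.3 in WT and 55.0 in KO (centred log2 1.07). ATP5F1B read 67.1 and 8.21 by symbol, but 67.1 and 34.8 over the gene. Of 5 NR3C1 targets, 5 and 4 had RPB1 regions, with TSC22D3 (5.51) in WT alone. Of 7 NR1I2 and NR1I3 targets, 3 and 3 had RPB1 regions, and CYP3A4, CYP2B6 and UGT1A1 were among those with none in either list. Of CYP7A1 and CYP8B1, the NR5A2 targets, CYP7A1 had no RPB1 region in either list and 2 weak phospho-Ser2 regions in WT alone. Phospho-Ser2 was assigned to 3 and 3 NR1H4 targets, 6 and 4 NR1H3 targets, 3 and 3 NR1I2 and NR1I3 targets and 2 and 4 NR3C1 targets in WT and KO cells.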

How the data were processed

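ChIP-seq lists for RPB1 and phospho-Ser2 RPB1 from WT and KO HepG2 cells were used, 1 library per antibody and cell type. The 2 input libraries were not analysed here. The authors used Trimmomatic for trimming, BWA in the MUGQIC pipeline for alignment to hg38 and MACS2, with the matched input, for regions per library; the versions are not given in the sources used here. The deposited lists hold fold enrichment over input (a ratio), −log10 p-values, −log10 q-values, the genomic class and the gene of the nearest transcript start. The authors also deposited a csaw comparison of RPB1 (p-values, adjusted p-values and window numbers per region), which was not used. All 271336 regions lie within hg38 chromosomes.

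Regions were taken by the authors' symbol and counted as listed. Regions were called overlapping from 1 bp. Ranks are by fold enrichment within a list. The region over a gene runs from 3 kb upstream to the gene end in GENCODE release 44. Called means a centred ratio of at least 2 times; shares have 95% Wilson intervals. A symbol follows the nearest start, so regions late in a long gene can carry a neighbour's name. Libraries were scaled to their inputs and not to each other, and splitting or joining of regions by the caller changes counts. Depth is unknown, and no test or p-value was computed. The functions were tested on simulated data. Alternatives were a −log10 q-value of at least 5, distinct intervals, gene intervals, no distal regions, reciprocal overlap of 50%, promoter regions only, no centring and ranks. The counts that require at least 5 regions were chosen after seeing the data. The genes, gene lists and motifs were chosen with earlier results of these data known. Named genes are the 10 receptors, PTPN6, genes that share their regions, and from the other lists those found in 1 RPB1 list only or past 2 times, at most 6 a list, with liver and other cell markers; some genes that meet this rule are not reported here, and genes outside it were named after their values were seen. Promoter bases came from RefSeq (GRCh38.p14), which holds windows for 9 of the receptors. Python 3.11.15, pandas 2.3.3, NumPy 2.4.6, SciPy 1.17.1 and matplotlib 3.10.9 were used.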

Additional observations from a re-analysis of the deposited data

How the results depend on the processing

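No paired analysis was possible because each group had 1 library and no result comes from a test. With regions kept from a −log10 q-value of 5 upward, the receptors' regions numbered 33 (WT RPB1), 27 (KO RPB1), 66 (WT phospho-Ser2) and 52 (KO phospho-Ser2). The shares overlapped by the other cells were 81.8%, 92.6%, 78.8% and 94.2% in that order. With a reciprocal overlap of 50% the shares were 32.1% (WT RPB1), 42.5% (KO RPB1), 36.4% (WT phospho-Ser2) and 42.7% (KO phospho-Ser2). The stricter q-value leaves fewer regions by construction, and the cause of the other shifts was not tested. With promoter regions only, 0 receptors were 2 times lower for RPB1 (RXRA, -0.98) and 1 was 2 times higher (NR5A2, 1.16). The NR5A2 value pairs promoter regions at different sites. By gene interval, NR1H4 phospho-Ser2 was -0.86, still centred on the by-symbol median. It thereby changed sign, short of the mark of 2 times. By rank, PPARA RPB1 was -0.632 percentage points. The numbers of receptors with a region were the same under both alternatives run, although over gene intervals PPARA entered and NR1I2 left the KO phospho-Ser2 list. Without replicates, the spread between libraries, and hence which of these differences exceed it, is not known.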

Other observations

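The 38 other nuclear receptor genes gave a background for the metabolic set. RPB1 regions were assigned to 26 of them in each cell type. ESRRB (7.01) and NR4A2 (9.74) had them in WT alone, as did 8.73% of all genes. By symbol, NR2F2 (35.6) and NR2C2 (4.22) had them in KO alone, as did 3.95% of all genes. A WT region over each of these 2 genes read 47.0 and 34.5, in that order. The median centred ratio over the 24 in both lists was -0.10. RORA, a receptor tied to the circadian clock, had 7 and 0 phospho-Ser2 regions, the strongest of 4.19, while RPB1 read 40.0 and 20.7. For phospho-Ser2, 21 of the 38 had regions in WT and 18 in KO. Of the 38, 4 had them in WT only and 1 in KO only, beside 14.1% and 4.23% of all genes.

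Among 14 coregulators, 14 had RPB1 regions in WT and 12 in KO, and 13 and 12 of them had phospho-Ser2 regions. Of all genes, 8.73% had RPB1 regions and 14.1% phospho-Ser2 regions in WT only. PPARGC1B, a coactivator of ESRRA, had 2 weak regions (5.51) in WT and 0 in KO. Several other differences by symbol, in these coregulators and in the nuclear receptors NR2F1 and NR2F2, vanished or shrank over the gene interval. NCOR1 read 3.80 and 38.3 by symbol but 57.8 and 38.3 over the gene, HDAC3 read 40.6 and 22.9 over the gene after being absent by symbol in KO, and NR2F1 read 6.01 and 22.4 by symbol but 26.8 and 22.4 over the gene. NR2F2, absent by symbol in WT, read 47.0 and 35.6. In these 4 genes the strongest region over the gene carried another symbol in at least one list.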
